A study of Arabidopsis thaliana with 16 samples.

Results

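The transcripts described here are 5 of the 22746 non-control probe sets (groups of short oligonucleotides that together measure a transcript) on an Arabidopsis thaliana array, and all 5 are linked to the timing of flowering. They are FKF1 (probe set 259990_s_at), FLC (250476_at), PCC1 (256766_at), the CDF gene AT1G26790, also called CDF6 (261263_at), and SMZ (AT3G54990, 251811_at). The annotation table used here lists 1 gene for 2 of the 5 probe sets, those of AT1G26790 and SMZ. It lists no gene for the other 3, whose names come from the list by which they were chosen and could not be checked here. The probe set of FKF1 is of a type that can detect more than 1 transcript, so its signal may not come from FKF1 alone. The 5 were selected on their signals over 4 times and both genotypes. Their values are therefore given as a description, without p-values.

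Total RNA of whole seedlings was measured on 16 Affymetrix ATH1 arrays, 1 per sample. The lhy cca1 seedlings carried lhy-21 and cca1-11, labelled as T-DNA knock-outs in the Wassilewskija background, and the WS seedlings were wild type. All seedlings had 4 days of cold in the dark, 3% sucrose in the medium, and cycles of 18 h light of 60 to 65 µE and 6 h dark at 22 °C, and were sampled at 9 days of age. Sampling times were 15 min before dawn, then 15, 30 and 60 min past it, and each genotype had 2 samples at each time. No label says that these came from separate cultures, so the spread between them may be technical. No sample stayed dark past dawn, so light and time cannot be told apart. In RNA of whole seedlings, fewer cells of a type and less transcript per cell cannot be told apart either.

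Flowering in Arabidopsis is promoted by long days. FKF1 is a blue-light receptor and F-box protein that acts together with GIGANTEA (GI) to remove CDF proteins, which are DOF-type repressors of CONSTANS. CONSTANS activates FT, the mobile floral signal. FLC, a MADS-box protein, and SMZ, an AP2-like protein, both repress FT. PCC1 encodes a small cysteine-rich protein first described as responding to pathogens and to the clock. LHY and CCA1 are related MYB-like proteins of the morning clock that repress many evening genes, GI and FKF1 among them.

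Replicate arrays correlated at 0.961 to 0.981 across 14878 probe sets that passed a filter on low signal, which required 2 or more arrays with a signal over their own 40th percentile (19.1 to 22.0). A signal at or below that percentile is called dim. Of 14 tissue markers 3 had a named probe set. The shoot markers RCA and LHCB4.1 were above the percentile on all 16 arrays. LHCB4.1 read 4370 to 6623 in lhy cca1 and 3583 to 4732 in WS. RCA read 5613 to 7825 in lhy cca1 and 6028 to 7186 in WS, a range inside that of lhy cca1. The part of the LHCB4.1 difference in the results that follow was not tested. The root hair marker EXPA7 was above it on 1 of 8 lhy cca1 arrays and 1 of 8 WS arrays. The annotation names no probe set for LHY or CCA1, so the mutated genes were not used to check the labels. The 25S rRNA control signal averaged 8.74 log2 on the 4 lhy cca1 replicate 2 arrays and 6.79 on the 4 lhy cca1 replicate 1 arrays, against 6.57 on the 8 WS arrays.

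All 5 probe sets passed the filter, but 4 of them did so through 1 genotype. FKF1 was above the 40th percentile on 2 arrays, both of lhy cca1 at 60 min. FLC and PCC1 were above it on all 8 WS arrays and on 0 of 8 lhy cca1 arrays, and AT1G26790 on 6 WS arrays and 0 lhy cca1 arrays. SMZ was above it on 7 of 8 arrays of either genotype. Where a group was dim on all its arrays, a fold is given as a bound ("at least N-fold"). It was computed from the brighter mean and, for the dim group, whichever was higher of its signal and the percentile. Differences in log2 with an SE, in the text and figures, use the signals as read, dim ones included, and are not bounds. Overlap of the arrays of 2 groups is description only, and its share among all probe sets was counted only where printed.

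**Figure D1:**
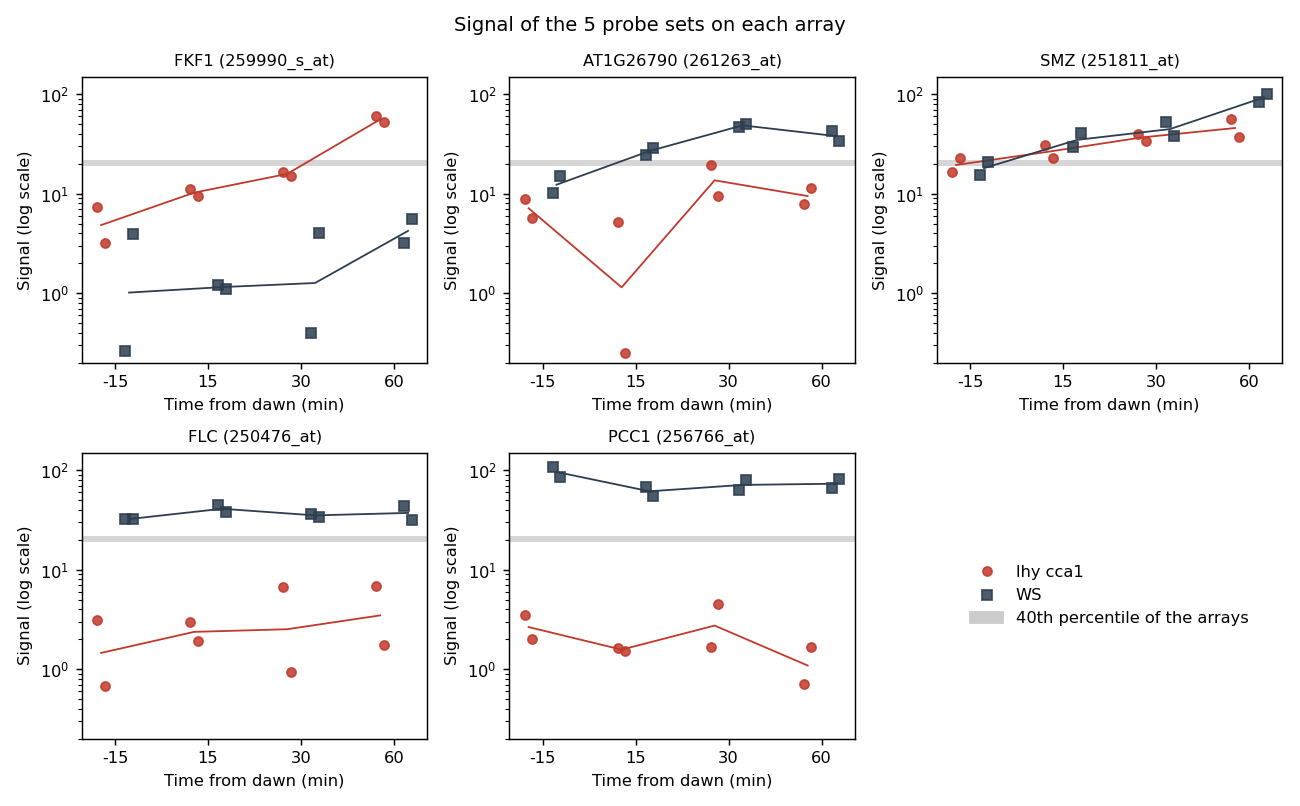
Signal on each array (log scale) against time from dawn, with the times evenly spaced, for lhy cca1 (circles) and WS (squares). Lines join geometric means of 2 arrays and the grey band is the range of the arrays' 40th percentiles, 19.1 to 22.0. FLC and PCC1 lie above the band on every WS array and below it on every lhy cca1 array, while FKF1 lies above it only in lhy cca1 at 60 min.

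In lhy cca1 seedlings FKF1 was highest at 60 min and in WS seedlings it stayed dim throughout. Before dawn its signals were 7.29 and 3.22 in lhy cca1, against 0.261 and 3.94 in WS, which overlap. At 15 min they were 11.1 and 9.53 in lhy cca1 and 1.20 and 1.11 in WS. The genotypes did not overlap at 15 min or later, although all signals at 15 and 30 min were dim. The share of all tested probe sets with that pattern was not counted. At 30 min the signals were 16.5 and 15.3 in lhy cca1 and 0.398 and 4.03 in WS. At 60 min they were 60.1 and 52.3 in lhy cca1 and 3.19 and 5.63 in WS. The difference at 60 min was at least 2.85-fold. At the 3 earlier times both genotypes were dim, so no fold is given. On the log2 scale the mean difference over 4 times, lhy cca1 minus WS, was 3.20 ± 0.671 (SE of the limma fit, 8 arrays per genotype), with 2 of the 16 arrays above the percentile. It was 0.87 ± 0.0943 with 16 added to each signal before the log. Between the replicate 1 arrays of the genotypes it was 4.41, and between the replicate 2 arrays 1.99.

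Ordered by mean log2 signal, the 4 lhy cca1 groups of FKF1 stood above the 4 WS groups. Within lhy cca1 the order ran from 60 min down through 30 and 15 min to before dawn, and no neighbours in it overlapped. All neighbours from lhy cca1 before dawn downward overlapped. From before dawn to 60 min FKF1 differed by 3.53 ± 1.34 log2 in lhy cca1, at least 2.62-fold. In WS the same contrast was 2.06 ± 1.34 with all arrays dim. Leaving out WS before dawn replicate 1 gave 0.11, and leaving out WS before dawn replicate 2 gave 4.02.

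AT1G26790, the DOF-type gene of the CDF group, was dim on all lhy cca1 arrays and lower there than in WS at each time. Before dawn both genotypes were dim, with 8.96 and 5.71 in lhy cca1, against 10.1 and 15.1 in WS. At 15 min it read 5.21 and 0.251 in lhy cca1 and 24.8 and 29.2 in WS. At 30 min it read 19.5 and 9.59 in lhy cca1 and 47.0 and 50.8 in WS. At 60 min it read 7.85 and 11.5 in lhy cca1 and 42.8 and 33.9 in WS. The arrays of the genotypes did not overlap at any of the 4 times, a pattern of lower lhy cca1 signal met by 3.3% of all tested probe sets. The bounds were at least 1.25-fold lower in lhy cca1 at 15 min, 2.32-fold at 30 min and 1.82-fold at 60 min.

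In WS, AT1G26790 was at least 1.32-fold, 2.40-fold and 1.87-fold above its level before dawn at 15, 30 and 60 min. The 30 min arrays were highest of all groups, followed by 60 min and 15 min in WS, none of these overlapping their neighbour. In lhy cca1 all 4 times were dim, and the order of its groups rests on such signals. The mean genotype difference over 4 times was -2.30 ± 0.445 log2. It was -1.75 without lhy cca1 15 min replicate 2, the array that read 0.251, and -0.92 with 16 added to each signal. It was -1.54 between the replicate 1 arrays and -3.06 between the replicate 2 arrays, whose lhy cca1 members had the higher 25S rRNA control signal, and -1.72 with that signal as a covariate.

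SMZ was the one of the 5 with a signal above the percentile in both genotypes, and its values differed more between times than between genotypes. Before dawn it read 16.7 and 22.8 in lhy cca1 and 15.6 and 21.0 in WS. At 15 min it read 31.0 and 22.8 in lhy cca1 and 29.9 and 40.6 in WS. At 30 min it read 40.2 and 34.0 in lhy cca1 and 53.0 and 37.9 in WS. The genotypes overlapped at these 3 times. At 60 min it read 56.9 and 37.1 in lhy cca1, below 84.5 and 101.7 in WS, and the genotypes did not overlap. The share of all tested probe sets with that pattern at 60 min was not counted.

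From before dawn to 60 min SMZ differed by 1.24 ± 0.283 log2 in lhy cca1 and by 2.35 ± 0.283 in WS. The difference between these changes, lhy cca1 minus WS, was -1.12 ± 0.401 log2 and did not pass the threshold. Without the 4 lhy cca1 replicate 2 arrays it was -0.59 ± 0.460, and the change in lhy cca1 was 1.77. In WS both arrays at each of the 3 later times lay above both arrays before dawn. In lhy cca1 this held at 30 and 60 min, while 15 min overlapped. The shares of all tested probe sets with these patterns were not counted. Apart from WS at 60 min, which stood above all other groups, each group of SMZ overlapped its neighbour in the order of levels. The mean genotype difference over 4 times was -0.39 ± 0.142 log2.

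**Figure D2:**
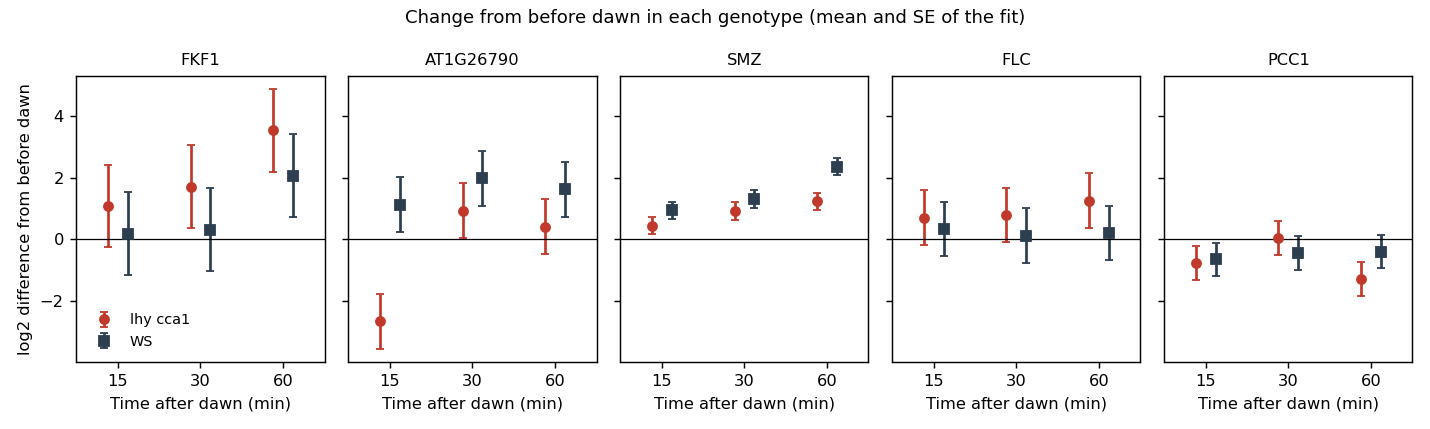
Change in log2 signal from before dawn to 15, 30 and 60 min in lhy cca1 (circles) and WS (squares), with the SE of the limma fit. Each SE pools the spread of all 8 groups. SMZ at 60 min reaches 1.24 in lhy cca1 and 2.35 in WS, while the FKF1, FLC and AT1G26790 values have SEs of 0.883 to 1.34, against 0.283 for SMZ.

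FLC was lower in lhy cca1 than in WS at every time. Before dawn it read 3.14 and 0.676 in lhy cca1, against 32.7 and 32.1 in WS. At 15 min it read 2.95 and 1.91 in lhy cca1 and 44.7 and 37.8 in WS. At 30 min it read 6.72 and 0.946 in lhy cca1 and 36.2 and 34.3 in WS. At 60 min it read 6.92 and 1.74 in lhy cca1 and 43.7 and 31.9 in WS. All 8 lhy cca1 arrays lay below all 8 WS arrays, which 0.833% of tested probe sets showed. The bounds ran from at least 1.51-fold lower in lhy cca1 before dawn to at least 1.91-fold at 15 min.

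The mean genotype difference of FLC over 4 times was -3.96 ± 0.442 log2 and -1.47 with 16 added to each signal. Within lhy cca1 the replicate 2 array was the lower at all 4 times, on the arrays with the higher 25S rRNA control signal. The difference was -3.10 between the replicate 1 arrays of the genotypes and -4.81 between their replicate 2 arrays. With the 25S rRNA signal as a covariate it was -3.01 ± 0.392. Around dawn, FLC in WS differed from its level before dawn by 0.34 ± 0.883 log2 at 15 min, 0.12 ± 0.883 at 30 min and 0.21 ± 0.883 at 60 min. That SE pools the spread of all 8 groups. The SD of the 2 log2 signals was 0.02 to 0.32 in the WS groups and 0.44 to 2.00 in the lhy cca1 groups. Both WS arrays at 15 and 30 min lay above both WS arrays before dawn, and those at 60 min overlapped them. The 60 min value was -0.02 without WS 60 min replicate 1 and 0.43 without WS 60 min replicate 2. How many tested probe sets had the order of WS arrays seen for FLC at 15 and 30 min was not counted. In lhy cca1 every time overlapped every neighbouring one in the order of levels.

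PCC1 had the widest separation of genotypes among the 5 on the log2 scale. Before dawn it read 3.50 and 2.01 in lhy cca1, against 107.4 and 86.6 in WS. At 15 min it read 1.61 and 1.53 in lhy cca1 and 68.7 and 55.2 in WS. At 30 min it read 1.67 and 4.52 in lhy cca1 and 63.4 and 80.4 in WS. At 60 min it read 0.712 and 1.66 in lhy cca1 and 65.8 and 82.0 in WS. As with FLC, all 8 lhy cca1 arrays lay below all 8 WS arrays. The bounds were at least 4.51-fold lower in lhy cca1 before dawn, 2.86-fold at 15 min, 3.39-fold at 30 min and 3.50-fold at 60 min.

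The mean genotype difference of PCC1 over 4 times was -5.31 ± 0.273 log2, and -2.33 with 16 added to each signal. It was -5.53 between the replicate 1 arrays and -5.10 between the replicate 2 arrays, and -5.46 ± 0.343 with the 25S rRNA signal as a covariate. In WS both arrays at each time after dawn lay below both arrays before dawn, with differences of -0.65 ± 0.547 log2 (15 min) and -0.39 ± 0.547 (60 min). These differences are about the size of their errors, which pool the spread of all 8 groups. The SD of the 2 log2 signals was 0.22 to 0.24 in the WS groups and 0.05 to 1.02 in the lhy cca1 groups. No fit of the WS arrays alone was run. The share of all tested probe sets with that order of WS arrays was not counted. In lhy cca1 all PCC1 signals were dim.

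**Figure D3:**
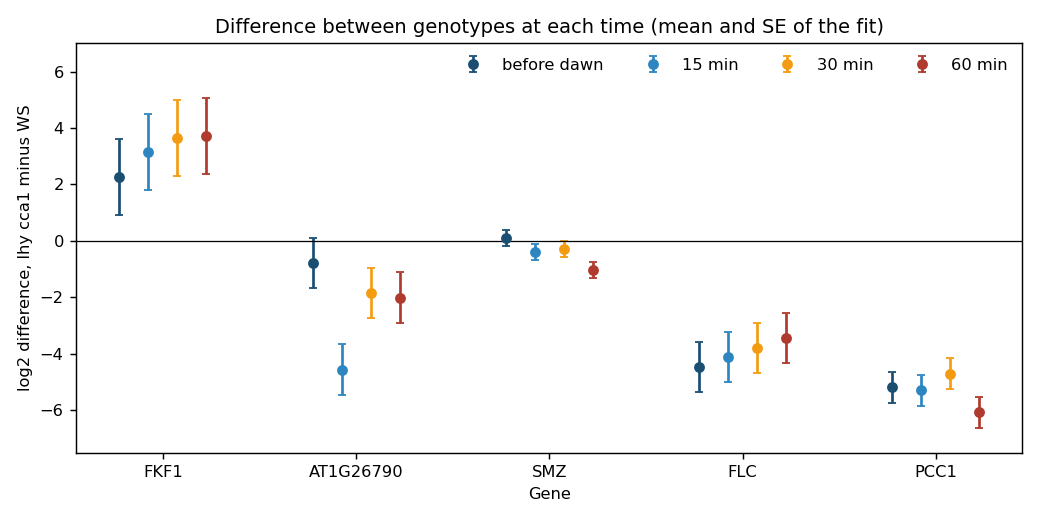
Difference in log2 signal between lhy cca1 and WS at each time for the 5 genes, with the SE of the limma fit. FKF1 is above 0 and FLC, PCC1 and AT1G26790 are below it at all 4 times. SMZ is nearest 0, from 0.11 before dawn to -1.01 at 60 min. Both genotypes were dim for FKF1 before dawn and at 15 and 30 min, and for AT1G26790 before dawn.

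The calls that follow are for genes chosen on these same values, so they do not test these genes. In the fit, 4 of the 5 passed an adjusted p of 0.05 in the genotype mean, 1 higher (FKF1) and 3 lower (FLC, PCC1 and AT1G26790) in lhy cca1. Of all tested probe sets 18.2% passed, 10.9% higher and 7.35% lower. At single times 2 passed before dawn, at 30 min and at 60 min and 3 at 15 min. The shares of all probe sets were 1.61% before dawn, 1.73% at 15 min, 1.07% at 30 min and 3.39% at 60 min. FKF1 passed at no single time, with an SE of 1.34 that pools the spread of all 8 groups. The SD of its 2 log2 signals was 2.77 before dawn and 2.36 at 30 min in WS, all dim. At 60 min it was 0.58 in WS and 0.14 in lhy cca1. From before dawn to 60 min SMZ alone passed, in lhy cca1 (9.51% of all probe sets passed) and in WS (8.92%). For the difference between the genotypes' changes at 60 min 0 of 5 passed, as did 3 of all 14878 probe sets (0.0202%) in limma, with 1021 at an unadjusted p under 0.05. These values chose the 5 genes, and 4 of them passed the filter through 1 genotype. Nothing is therefore read from the counts or from their median. That median difference over the 5 genes in the genotype mean was -2.30 log2, against 0.02 over all tested probe sets.

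Among themselves, the 5 fell into no single pattern. FLC and PCC1 varied most alike over the 16 arrays, with a Pearson r of 0.861 for log2 signals, and FKF1 was opposite to PCC1 at -0.771. FLC and AT1G26790 had an r of 0.657, and FKF1 and SMZ one of 0.177. The 16 arrays share their genotypes and times, and the genotypes differ in most of these signals, so these correlations describe these arrays only.

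The most similar of 8047 named and tested probe sets were sought for each gene by the same measure over 16 arrays. For FLC they were AT2G25510 (r of 0.962), SEC, an O-linked N-acetylglucosamine transferase gene (0.955), and THIC, a thiamine synthesis gene (0.938). For PCC1 they were AT2G25510 (0.946), AT1G10850 (0.937) and AT5G24690 (0.935). AT2G25510 thus led both lists. In the genotype mean it differed by -2.11 log2, SEC by -3.42, THIC by -0.758, AT1G10850 by -1.49 and AT5G24690 by -0.399. How far these r values reflect the difference between genotypes was not tested. For FKF1 they were AT4G18810 (0.887), PDC2, a pyruvate decarboxylase gene (0.878), and the sugar transporter gene SWEET11 (0.872). AT1G26790 was nearest to AT2G46940 (0.865), AT5G02890 (0.849) and AT2G01970 (0.839). FKF1 was above the percentile on only 2 of the 16 arrays and AT1G26790 on only 6, so their r values rest mostly on dim signals. FLC and PCC1 were dim on all 8 lhy cca1 arrays and above the percentile on all 8 WS arrays. Their r values thus also include dim signals and that split between genotypes. SMZ, which followed time more than genotype, was nearest to AT5G19750 (0.922), the flavonol glycosyltransferase gene UGT78D2 (0.921) and AT2G27420 (0.917).

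Other genes of the flowering pathways were read where the annotation allowed. Of 84 in 5 lists (light and day-length input, AP2-like and RAV repressors, FLC regulators, MADS-box relatives, floral integrators), 10 had a named probe set and 6 passed the filter. CDF5 (AT1G69570), AGL24, AGL19 and FD did not. In the genotype mean 1 of the 6 was higher in lhy cca1, 0 were lower and 5 did not pass, with a median of 0.12 log2. Among all tested probe sets 18.2% passed and 10.9% were higher, so 1 of 6 is near the background. The 1 was GI, the partner of FKF1, at 1.61 ± 0.216 log2 (limma adjusted p = 8.56e-05, from 5.28e-07 to 0.0154 over 25 alternatives), and at 0.98 with 16 added to each signal. Its signal at 60 min was 361.2 and 405.5 in lhy cca1, against 80.4 and 92.3 in WS. Before dawn GI was dim in both genotypes, at 11.8 on either lhy cca1 array and 2.22 and 7.98 in WS. It was also dim in both at 15 min and in WS at 30 min. GI and FKF1 were both highest in lhy cca1 at 60 min, but GI in WS at 60 min was above the percentile on both arrays and FKF1 there was dim.

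The 5 that did not pass in the genotype mean differed by at most 0.25 log2. AT2G34140, known as CDF4 and a relative of AT1G26790, differed by -0.04 ± 0.129 log2 (95% interval -0.31 to 0.24). SNZ, the closest relative of SMZ in the lists, differed by 0.09 ± 0.137 (-0.20 to 0.38). FY, an RNA-processing factor of the autonomous pathway that lowers FLC, differed by -0.02 ± 0.0976 (-0.23 to 0.19). LD, a homeodomain protein of that pathway, differed by 0.25 ± 0.112 (0.01 to 0.48, adjusted p = 0.144), and ATC, a relative of the repressor TFL1, by 0.16 ± 0.071 (0.01 to 0.31, adjusted p = 0.137).

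Around dawn GI was again the 1 of 6 that passed at 60 min in either genotype, rising at least 17.9-fold in lhy cca1 (limma adjusted p = 1.16e-06) and at least 4.23-fold in WS (adjusted p = 4.8e-06). Of all tested probe sets 9.51% passed in lhy cca1 and 8.92% in WS. SNZ had 34.3 and 47.2 at 60 min and 32.6 on both arrays before dawn in lhy cca1, and did not pass (0.30 ± 0.275 log2, adjusted p = 0.606). In WS it had 34.2 and 53.4 at 60 min and 22.4 and 27.2 before dawn, and did not pass either (0.79 ± 0.275, adjusted p = 0.0889). Its WS arrays at the 2 times did not overlap, a pattern whose share of all tested probe sets was not counted. In WS 2 of the 6 genes passed with the replicate number as a block, and 2 without WS 60 min replicate 1.

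**Figure D4:**
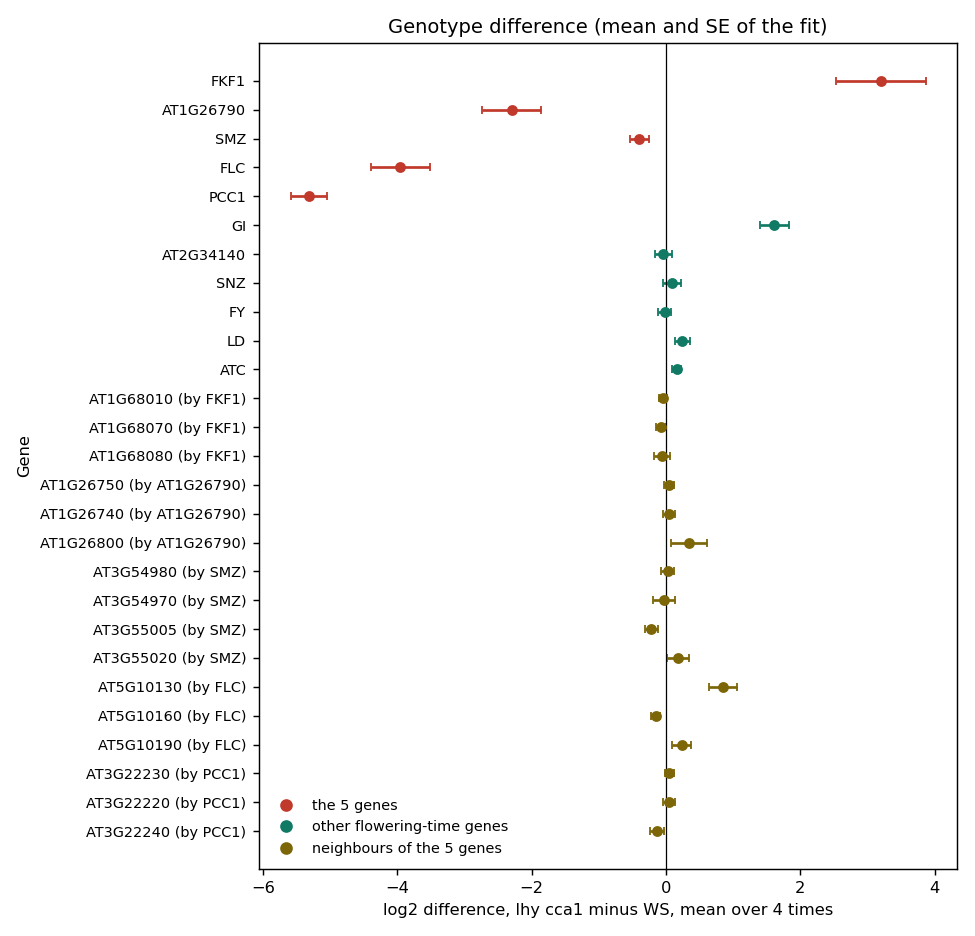
Mean difference in log2 signal between lhy cca1 and WS over 4 times, with the SE of the limma fit, for the 5 genes, the 6 other flowering-time genes tested and 16 genes near the 5. FKF1, FLC, PCC1 and AT1G26790, which were chosen on these values, lie farther from 0 than all other genes drawn. Of those others GI at 1.61 and AT5G10130 at 0.85 are the farthest. The values drawn have no offset. With 16 added to each signal GI was at 0.98, FKF1 at 0.87 and AT1G26790 at -0.92, so that order did not hold.

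Genes near the 5 on the chromosomes were also compared, a choice made after the data were seen. For each of the 5, the 2 nearest protein-coding genes with a named probe set on either side were taken from the TAIR10.1 reference table, and 16 of these 20 passed the filter. In the genotype mean 1 of the 16 passed, against 18.2% of all probe sets. It was AT5G10130, the neighbour of FLC, which was higher in lhy cca1 by 0.85 ± 0.205 log2 (limma adjusted p = 0.00821), opposite in sign to FLC. It did not pass with the 25S rRNA signal as a covariate (0.68, adjusted p = 0.111) or without the 4 lhy cca1 replicate 2 arrays (0.72, adjusted p = 0.163). The other FLC neighbours, AT5G10160 and AT5G10190, differed by -0.15 ± 0.0681 and 0.23 ± 0.145.

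By PCC1, the genes AT3G22230 and AT3G22220 differed by 0.05 ± 0.0699 and 0.05 ± 0.092 log2. AT3G22240, 2 protein-coding genes from PCC1, differed by -0.13 ± 0.102. Its signal was 575.1 to 808.4 over 8 lhy cca1 arrays and 546.5 to 1276 over 8 WS arrays. It was also the 1 gene of a list of 10 around PCC1 and salicylic acid defence with a named probe set. In WS it fell by 0.71 ± 0.204 log2 from before dawn to 60 min (limma adjusted p = 0.0369). That call was lost under 8 of 25 alternatives, among them leaving out WS before dawn replicate 1 (-0.46, adjusted p = 0.335) or WS 60 min replicate 2 (-0.45, adjusted p = 0.261). Near FKF1, AT1G26790 and SMZ, the tested neighbours lay between -0.21 and 0.35 log2 and none passed in limma.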

How the data were processed

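The authors deposited 1 table of intensity values on a linear scale for 16 arrays. It came from MAS5 and GCOS, per the submitters' processing notes. Their version numbers were not given in the sources used here. Trimmed means (2% at either end) of 100.01 to 100.011 show that arrays had been scaled to a common level. Of 22810 probe sets, 64 controls were left out of the tests. Genes were named through the array's annotation table (13513 probe sets with 1 gene, 503 with several, 8730 with none), and 13436 matched the TAIR10.1 gene table.

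Signals were converted to log2 with no offset. A probe set was tested if above its array's 40th percentile on at least 2 arrays. A model of 8 group means was fitted in limma 3.58.1 (R 4.3.3) by lmFit and eBayes, with an intensity trend, leaving 8 residual degrees of freedom. Adjustment by Benjamini-Hochberg ran over 14878 probe sets with a threshold of 0.05, and tests were 2-sided. The code was tested on simulated data. The number of arrays, 2 per group, limits precision. Alternatives covered scaling, offset, filter, replicate block, 25S rRNA covariate, eBayes trend and left-out arrays. Named genes were the 5, GI, list genes past the threshold, the 3 probe sets of highest r with each of the 5, and those singled out after their values were seen (SNZ, AT5G10130 and the other genes near the 5, and the list genes that did not pass). A gene with several probe sets was read from the one of highest mean signal. The members and lists were chosen with earlier results of these data known.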

Additional observations from a re-analysis of the deposited data

Results flagged for a closer look

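AT1G26790 differed in opposite directions in the genotypes from before dawn to 15 min. It was lower at 15 min on both lhy cca1 arrays (-2.64 log2) and higher on both WS arrays (1.13 log2). The difference between these changes was not tested. All 4 lhy cca1 signals and both WS signals before dawn were dim, and 1 lhy cca1 array at 15 min read 0.251, so the first value rests on signals below the 40th percentile. With 2 samples per group, no group was tested for outlying samples.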

How the results depend on the processing

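With 16 added before the log, the genotype mean was 0.871 for FKF1, -1.465 for FLC, -2.328 for PCC1 and -0.922 for AT1G26790. The change to 60 min in lhy cca1 was then 1.768 for FKF1, 0.175 for FLC, -0.125 for PCC1 and 0.805 for SMZ, and in WS 0.178 for FKF1 and 1.668 for SMZ. The difference between the changes was 0.205 for PCC1, against -0.892 without the offset. For FKF1 it was 1.59 ± 0.267, against 1.47 ± 1.9 without the offset. PCC1 moved under quantile normalization (change in lhy cca1 -1.895, difference between changes -1.559) and without the 4 lhy cca1 replicate 2 arrays (-2.299 and -1.905). SMZ then had 1.77 in lhy cca1 and -0.585 for the difference. No genotype mean of the 5 genes changed sign under any alternative run.

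Leaving out 1 array gave genotype means of 2.707 to 3.686 for FKF1, -4.309 to -3.602 for FLC, -5.495 to -5.134 for PCC1, -2.844 to -1.75 for AT1G26790 and -0.471 to -0.317 for SMZ. The change in WS was 0.105 to 4.02 for FKF1, and in lhy cca1 0.147 to 2.362 for FLC and -1.897 to -0.673 for PCC1. The difference between changes was -0.488 to 3.427 for FKF1, -0.059 to 2.156 for FLC and -1.503 to -0.28 for PCC1. Other flowering-time genes that passed at 60 min in WS numbered 1 to 2. All probe sets that passed numbered 797 to 1627 for lhy cca1 at 60 min (fewest without lhy cca1 before dawn replicate 2), 822 to 1370 for WS at 60 min (fewest without WS before dawn replicate 1) and 1 to 12 for the difference between changes.

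With the replicate number as a block, 2 other flowering-time genes passed at 60 min in WS against 1 without it. The difference between changes had 6 probe sets against 3, 8 with 16 added (where 1 other flowering-time gene passed, against 0), 7 with the 25S rRNA covariate, 1 without the eBayes trend and 1 without the 4 lhy cca1 replicate 2 arrays. The block changed no other count by over 1.5 times. Same-numbered arrays of different groups deviated together only weakly (r from -0.0163 to 0.269, median 0.103, over 28 pairs of groups), so the numbers were not taken to pair samples. For the genotype mean 2709 probe sets passed, 1182 with the covariate and 872 without those 4 arrays, which left 505 against 1415 for lhy cca1 at 60 min. GI at 30 min lost its genotype call under 16 of 25 alternatives. Under the stricter filter FKF1, FLC and AT1G26790 were not tested. The cause of these shifts was not tested.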
